A study of Mus musculus with 12 samples.

Results

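Primary granule genes are the genes that neutrophil precursors switch on first as they commit to making granules. They were followed here in livers of mouse fetuses that carry or lack the macroH2A histone variants. The group holds 10 genes, matched to the arrays by symbol and proposed with earlier results of these arrays known: Mpo, Elane, Prtn3, Ctsg, Fcnb, Hdc, Ms4a3, Csf3r, Cebpe and Gfi1. Not all of them encode stored granule proteins: Ms4a3 and Csf3r encode membrane proteins, and Cebpe and Gfi1 encode transcription factors. The name primary granule genes is used here for all 10 as a group. All 10 were measured, each by 1 probe set that names no other gene, among 19935 genes in all.

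Wild-type fetuses (6 arrays) were compared with fetuses lacking both macroH2A1 and macroH2A2, the double knockout (6 arrays). All 12 are labelled male, strain 129/S6 (taconic), and their livers were taken 18.5 days post coitum. Embryos of both genotypes had been mixed before transfer to wild-type recipient mothers. Each array was taken as 1 fetus; the labels do not state which fetuses shared a mother, so the p-values measure the spread between these samples only. The labels used here do not say how the 2 genes had been inactivated, nor in which cells.

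Late fetal liver is still a blood-forming organ, and granulocyte precursors mature among its hepatocytes. A precursor first fills primary (azurophil) granules with myeloperoxidase and serine proteases. It then stops making these proteins and goes on to secondary and tertiary granule contents, so that transcripts of the first set mark the early, promyelocyte-like stages. In RNA from whole liver, fewer such cells and less RNA per cell cannot be told apart.

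The deposited values are on a log2 scale, so that a difference of 1 is a doubling, and array medians lay between 7.55 and 7.61. All 120 values of the 10 genes lay above the median of their own array. The mean of 13 hepatocyte markers was 13.04 to 13.32 on the 12 arrays, far above those medians. Macroh2a1, a targeted gene, measured 10.36 ± 0.13 in wild type and 9.59 ± 0.06 in double-knockout livers (n = 6 each, ± SD; limma adjusted p = 3.5e-05), and it was lower on 6 of 6 arrays. Macroh2a2, the other, measured 9.30 ± 0.15 and 9.21 ± 0.28 (SD, n = 6 each; limma adjusted p = 0.99). Where these probes lie relative to the deletions is not given, so they do not check the labels fully. On 4 arrays the values of all probe sets were spread less widely: wild-type replicate 6 and double-knockout replicates 3, 5 and 6 had interquartile ranges of 2.77 to 2.89, against 2.92 to 3.02 on the other 8.

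All 10 primary granule genes had lower means in the double knockout, by small amounts. The log2 differences ran from -0.175 for Elane to -0.015 for Ms4a3, with a median of -0.108. Of all 19935 genes, 41.0% had lower means, with a median difference of 0.013. Among the 9634 genes at least as bright as Gfi1, the dimmest of the 10, the share was 54.2% and the median -0.0065. None of the 10 passed the limma test at an adjusted p under 0.05, in which 3 genes were lower (0.0150% of all genes) and 0 higher (0.00%). At an unadjusted p under 0.05, Mpo and Elane were lower, 2 of 10 beside 1.28% of all genes and 2.06% of those at least as bright, while 2.64% of all genes and 0 of the 10 were higher. In 0 of the 10 genes did all double-knockout arrays lie below all wild-type arrays, a pattern shown by 0.100% of all genes. The reverse pattern was shown by 0.110% of all genes and by 0 of the 10. Without the 4 arrays of narrower spread 9 of the 10 had lower means, with a median of -0.09, and the genes lower at an unadjusted p under 0.05 were Mpo and Prtn3, beside 2.31% of all genes and 3.45% of those at least as bright. The 10 genes were picked with earlier results of these arrays known, in which neutrophil markers had lower means, so the shared direction is a description and not independent evidence.

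**Figure D1:**
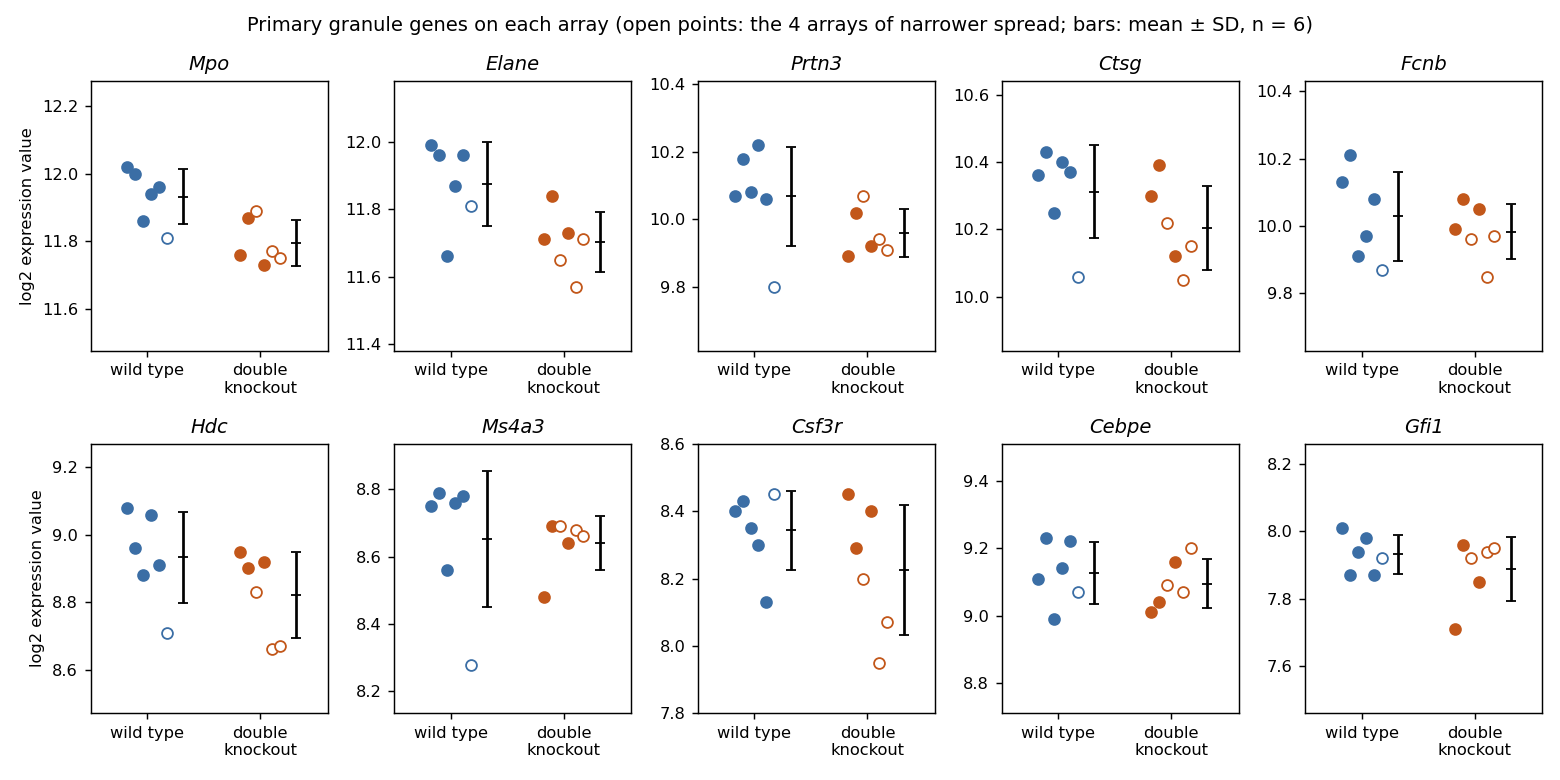
The 10 genes are plotted 1 to a panel, with a point for each array (log2 expression value, every panel spanning the same range), wild type in blue and double knockout in orange; bars give the mean ± SD (n = 6) and open points mark the 4 arrays of narrower spread. Mpo and Elane show the clearest offset between genotypes, and in every panel the groups overlap.

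Among the granule enzymes, Elane and Mpo had the widest differences of the 10 genes. Mpo encodes myeloperoxidase, which makes hypochlorous acid from hydrogen peroxide and chloride and is a defining protein of primary granules. Its log2 values ran from 11.81 over a median of 11.95 to 12.02 in wild type, and from 11.73 over 11.76 to 11.89 in the double knockout. On 4 of 6 double-knockout arrays it lay below every wild-type array, while replicates 2 and 3 overlapped with the lowest wild-type ones. Between genotypes it differed by -0.14 (log2) with a standard error of 0.048 and a 95% confidence interval of -0.24 to -0.035, or 1.10-fold lower (limma unadjusted p = 0.012, adjusted p = 0.99; exact permutation p = 0.015, 2-sided). The lower end of that interval is a drop of 1.18-fold.

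Elane encodes neutrophil elastase, a serine protease stored active in the granule. It measured 11.66 to 11.99 in wild-type livers (median 11.92) and 11.57 to 11.84 in double-knockout livers (median 11.71). Wild-type replicate 3, at 11.66, lay among the double-knockout values, and every other wild-type array was at 11.81 or higher. Elane thus differed by -0.175 (log2) with a standard error of 0.060 and a 95% confidence interval of -0.30 to -0.045, or 1.13-fold lower (limma unadjusted p = 0.012, adjusted p = 0.99; exact permutation p = 0.028, 2-sided). Without the 4 arrays of narrower spread it was -0.13 (limma unadjusted p = 0.11), and that of Mpo was -0.17 (limma unadjusted p = 0.0098).

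Prtn3 encodes proteinase 3, a close relative of elastase and the neighbouring protein-coding gene to Elane on chromosome 10. Its values ran from 9.80 to 10.22 in wild-type livers (median 10.07) and from 9.89 to 10.07 in double-knockout livers (median 9.93). The lowest value of all 12 was that of wild-type replicate 6, and no double-knockout array lay below it. Prtn3 differed by -0.11 (log2) with a 95% confidence interval of -0.25 to 0.023 (limma unadjusted p = 0.097). Without wild-type replicate 6 it was -0.165 (limma unadjusted p = 0.0040, adjusted p = 0.80), and without wild-type replicate 4 it was -0.081. Over the fits that left out 1 array, the limma unadjusted p ran from 0.0040 to 0.22.

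Ctsg encodes cathepsin G, the third serine protease of the group, whose gene lies on chromosome 14 between mast cell protease and granzyme genes. It ran from 10.06 to 10.43 in wild-type livers (median 10.37) and from 10.05 to 10.39 in double-knockout livers (median 10.19), with wild-type replicate 6 again the lowest of its genotype. For Ctsg the log2 difference came to -0.10 with a 95% confidence interval of -0.25 to 0.046 (limma unadjusted p = 0.16). It was -0.15 when wild-type replicate 6 was left out (limma unadjusted p = 0.024), and -0.073 when double-knockout replicate 5, the lowest array, was left out.

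The promoters of Mpo and Elane, the pair of lowest unadjusted p, and of Prtn3, Elane's neighbour, are shown to place these values beside the sequences that start the transcripts. Each is the RefSeq window of assembly GRCm38.p6 from 250 bases before to 50 bases after the annotated start, read 5′ to 3′ along the gene. Capitals mark matches, on either strand, to 6 short motifs. For ETS factors such as PU.1 the letters searched were GAGGAA, and for MYB they were AACGG. C/EBP factors were represented by TTNCNNAA. The RUNX motif was searched as TGTGGT, that of the repressor GFI1 as AAATCA, and the TATA box as TATAAA. None of the matches in these windows overlap.
Mpo, chr11:87793534-87793833, plus strand: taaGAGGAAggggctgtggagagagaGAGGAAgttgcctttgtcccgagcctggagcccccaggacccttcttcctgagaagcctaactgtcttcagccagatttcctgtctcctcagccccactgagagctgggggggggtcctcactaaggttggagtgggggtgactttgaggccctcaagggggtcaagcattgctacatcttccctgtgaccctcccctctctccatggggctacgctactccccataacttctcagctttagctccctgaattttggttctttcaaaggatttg
Elane, chr10:79886062-79886361, plus strand: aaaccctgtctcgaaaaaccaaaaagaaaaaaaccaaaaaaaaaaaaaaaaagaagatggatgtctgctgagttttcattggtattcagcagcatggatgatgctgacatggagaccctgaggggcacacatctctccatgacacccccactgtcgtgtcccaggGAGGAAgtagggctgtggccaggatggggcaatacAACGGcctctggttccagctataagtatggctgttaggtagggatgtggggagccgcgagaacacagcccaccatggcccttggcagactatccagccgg
Prtn3, chr10:79879417-79879716, plus strand: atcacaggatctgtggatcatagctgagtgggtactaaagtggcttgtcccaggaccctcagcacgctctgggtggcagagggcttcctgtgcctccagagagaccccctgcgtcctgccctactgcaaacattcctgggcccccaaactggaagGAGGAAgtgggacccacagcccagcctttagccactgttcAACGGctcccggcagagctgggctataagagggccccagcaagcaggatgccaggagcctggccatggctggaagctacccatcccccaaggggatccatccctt
In Elane, GAGGAA starts 85 bases and AACGG 50 bases before the transcript start. In Prtn3 they start 95 and 55 bases before it, in the same order on the coding strand, so the neighbours carry a similar arrangement. The window of Mpo holds GAGGAA at 247 and 224 bases before its start and no AACGG.

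Of the 10 genes, 9 had such a window; Cebpe had none. GAGGAA stood in the windows of 6 of these 9 genes, Mpo, Elane, Prtn3, Ctsg, Ms4a3 and Csf3r, and in 28.3% of 32851 windows of all genes. AACGG stood in 2 of the 9, Elane and Prtn3, against 17.4% of windows. TTNCNNAA was found in Fcnb, Ms4a3 and Gfi1 (40.7% of windows), TGTGGT and TATAAA in Ctsg (16.8% and 13.6%) and AAATCA in Hdc (14.0%). The TATAAA match in Ctsg lay on the opposite strand, 237 bases before the transcript start, and was not taken as a TATA box of that gene. All of these are letter matches, and binding was not measured.

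Fcnb and Hdc encode proteins outside the protease set. Fcnb encodes ficolin B, a secreted lectin that recognises microbial sugars and starts complement. It measured 9.87 to 10.21 in wild-type livers (median 10.03) and 9.85 to 10.08 in double-knockout livers (median 9.98). Fcnb differed by -0.045 (log2) with a 95% confidence interval of -0.175 to 0.085 (limma unadjusted p = 0.47). Hdc encodes histidine decarboxylase, which makes histamine in granulocyte precursors as well as in mast cells and basophils. It ran from 8.71 to 9.08 in wild-type livers (median 8.93) and from 8.66 to 8.95 in double-knockout livers (median 8.87). Double-knockout replicates 5 and 6, at 8.66 and 8.67, lay below every wild-type array. Hdc differed by -0.11 (log2) with a 95% confidence interval of -0.26 to 0.038 (limma unadjusted p = 0.13), and without the 4 arrays of narrower spread it was -0.054. Of 17 markers of mast cells, basophils and eosinophils, 5 had lower means and 0 passed, with a median of 0.02; after quantile normalization 10 had lower means. The mean of their log2 values moved little, at 6.71 to 6.82 on wild-type arrays and 6.74 to 6.84 on double-knockout arrays. Their part in the value of Hdc was not tested.

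The membrane proteins were Ms4a3 and Csf3r. Ms4a3 encodes a membrane-spanning protein of granulocyte-monocyte progenitors and their early progeny. It measured 8.28 to 8.79 in wild-type livers (median 8.76) and 8.48 to 8.69 in double-knockout livers (median 8.67). All 6 double-knockout arrays lay below the wild-type median, yet wild-type replicate 6, at 8.28, was lowest of all. Ms4a3 differed by -0.015 (log2) with a 95% confidence interval of -0.19 to 0.16 (limma unadjusted p = 0.85). It was -0.091 without wild-type replicate 6 and changed sign, to between 0.005 and 0.017, when any of 5 arrays was left out (double-knockout replicate 1, and replicates 1, 2, 4 and 5 of the wild type).

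Csf3r encodes the receptor for granulocyte colony-stimulating factor, which carries the survival and growth signal for the lineage and stays on mature neutrophils. It ran from 8.13 to 8.45 in wild-type livers (median 8.37) and from 7.95 to 8.45 in double-knockout livers (median 8.24), with an SD of 0.19 that was the widest of the 10 genes there. Double-knockout replicates 5 and 6 were lowest, at 7.95 and 8.07, and replicate 1 lay just above the highest wild-type array, both at 8.45. Csf3r differed by -0.12 (log2) with a 95% confidence interval of -0.29 to 0.058 (limma unadjusted p = 0.17). Without the 4 arrays of narrower spread it changed sign, to 0.057 (limma unadjusted p = 0.44).

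The transcription factors differed least between genotypes, with Ms4a3 and Fcnb. Cebpe encodes C/EBP epsilon, which takes precursors from the primary to the secondary granule stage. It measured 8.99 to 9.23 in wild-type livers (median 9.13) and 9.01 to 9.20 in double-knockout livers (median 9.08), with a log2 difference of -0.031 and a 95% confidence interval of -0.14 to 0.075 (limma unadjusted p = 0.54). Gfi1 encodes a zinc-finger repressor that neutrophil precursors need and that holds back monocyte genes. It measured 7.87 to 8.01 in wild-type livers (median 7.93) and 7.71 to 7.96 in double-knockout livers (median 7.93), with a log2 difference of -0.042 and a 95% confidence interval of -0.15 to 0.062 (limma unadjusted p = 0.40). The medians of Gfi1 were equal, and its lowest value was that of double-knockout replicate 1.

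The intervals bound what these arrays can show. Their lower ends reached a drop of 1.23-fold for Elane and Csf3r and 1.10-fold for Cebpe, a precision limited by how many arrays there are. The standard errors of the 10 genes ran from 0.048 to 0.082, beside a median of 0.057 over all genes.

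The arrays differed in a pattern that most of the 10 genes shared. Of 60 double-knockout values, 45 lay below the wild-type mean of their gene, as did 25 of the 60 wild-type values. The 10 genes share the same arrays and were picked with earlier results known, so these counts are a description and not independent observations. Wild-type replicates 1 and 2 gave the highest value for 8 of the 10 genes, with means over the 10 of 9.79 and 9.81. Double-knockout replicate 5 gave the lowest value for 5 genes, Elane, Ctsg, Fcnb, Hdc and Csf3r, with a mean of 9.55, and wild-type replicate 6 for Prtn3 and Ms4a3, with a mean of 9.58. Both are arrays of narrower spread. Counts of this kind were not made over all genes, so the pattern is not shown to be particular to the 10. Without wild-type replicate 6, 5 of the 10 genes were lower at an unadjusted limma p under 0.05 in place of 2, adding Prtn3, Ctsg and Hdc, and none passed after adjustment. In that fit 2.86% of all genes were lower at this threshold, and 4.99% of those at least as bright as Gfi1. On that array the mean of 12 erythroid markers was 11.29, and no other wild-type array was below 11.54; the part of red-cell precursors in the result was not tested.

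**Figure D2:**
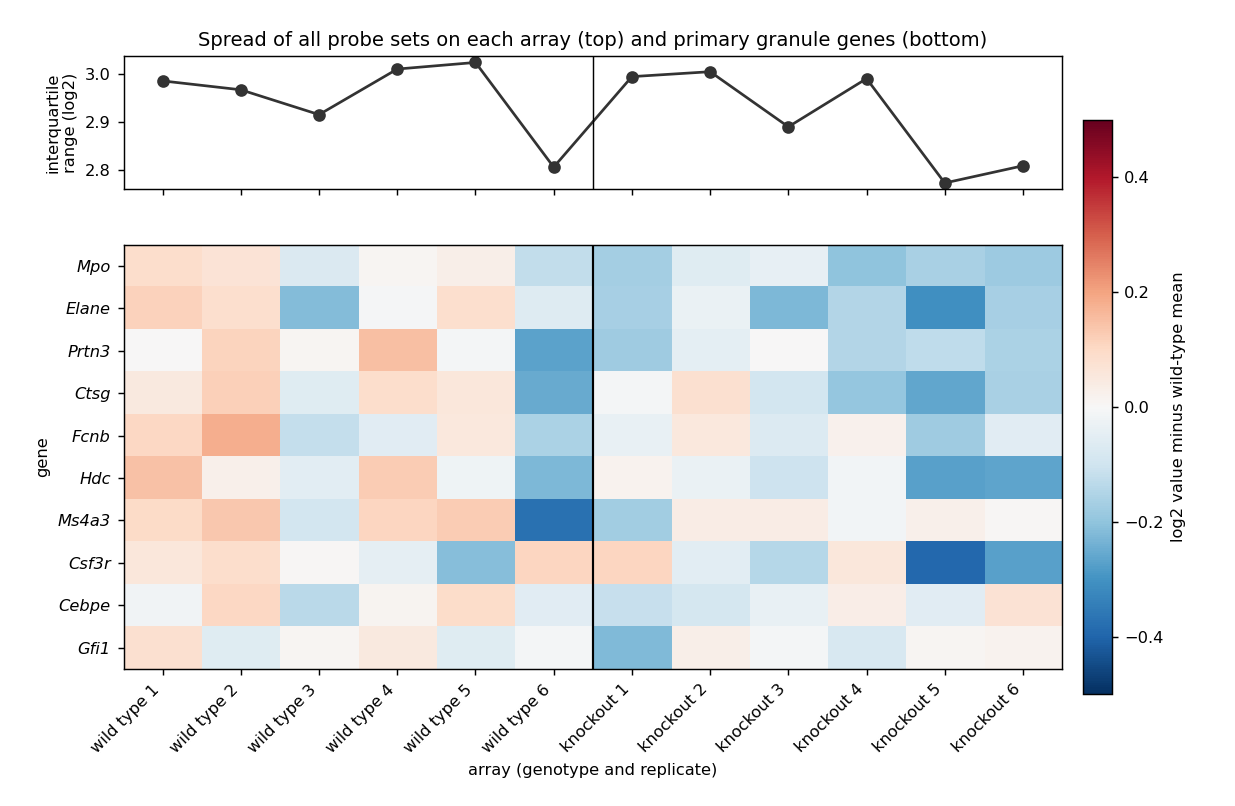
Top, the interquartile range of all probe sets on each array (log2); bottom, the log2 value of each primary granule gene minus its wild-type mean, from blue (lower) to red (higher), with a line between genotypes. The columns of wild-type replicate 6 and double-knockout replicate 5, where the interquartile range is 2.81 and 2.77, are blue for most genes, and those of wild-type replicates 1 and 2 are mostly red.

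Within genotypes the interquartile range of an array was compared with each gene, after genotype means were removed (12 arrays, 10 relations, Benjamini-Hochberg adjustment over them). Hdc followed it most closely, with Pearson's r = 0.90 (permutation p = 0.00015, adjusted p = 0.0015) and Spearman's rho = 0.78 (permutation p = 0.0040, adjusted p = 0.040). Without wild-type replicate 6 and double-knockout replicate 5, the arrays farthest from the median range, r was 0.80. Ctsg gave r = 0.81 (permutation p = 0.0014, adjusted p = 0.0070) and rho = 0.71 (permutation p = 0.012, adjusted p = 0.062), and r = 0.56 without these arrays. The other 8 did not pass, with r from -0.31 for Gfi1 to 0.68 for Fcnb. How many of all genes would pass was not counted, so the relation is not shown to be particular to Hdc and Ctsg. For Mpo r was 0.47 (permutation p = 0.12, adjusted p = 0.20).

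The genes were then compared with each other in the same way, in 45 pairs. Of these, 35 had a positive r, with a median of 0.45, and 7 passed at an adjusted permutation p under 0.05. Pairs of other genes of similar brightness were not counted, so these numbers are not shown to be particular to the primary granule genes. The closest pair was Elane and Fcnb, with r = 0.85 (permutation p = 0.00036, adjusted p = 0.016) and rho = 0.90 (permutation p = 0.00018, adjusted p = 0.0081), and r = 0.83 without the 2 arrays farthest from the median of Elane. Prtn3 and Ms4a3 gave r = 0.83 (permutation p = 0.0018, adjusted p = 0.028) and rho = 0.72 (permutation p = 0.010, adjusted p = 0.15), and r = 0.53 without wild-type replicates 4 and 6. The other 5 were Mpo with Prtn3, Ctsg and Ms4a3, and Ctsg with Fcnb and Hdc, with r from 0.73 to 0.76 and adjusted permutation p from 0.028 to 0.048. Their rho ran from 0.62 to 0.76 with adjusted permutation p from 0.13 to 0.16, and without the 2 farthest arrays their r ran from 0.48 to 0.72. The neighbours Elane and Prtn3 were not closely related, at r = 0.22 (permutation p = 0.50, adjusted p = 0.65) and rho = 0.13.

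None of the pairs of Csf3r, Gfi1 and Cebpe passed. Over its 9 pairs Csf3r had r from -0.45 with Gfi1 to 0.49 with Hdc and a median of -0.11. Gfi1 ranged from -0.45 to 0.29. Cebpe ranged from -0.30 with Csf3r to 0.59 with Ms4a3, and it had r = 0.52 with Elane and 0.54 with Fcnb. The number of pairs that passed was 1 without the 4 arrays of narrower spread, where it was Mpo with Elane, and 2 after quantile normalization, where Elane with Fcnb and Prtn3 with Ms4a3 were kept. Leaving out single arrays gave 1 pair for wild-type replicate 2, wild-type replicate 6 and double-knockout replicate 2, 2 pairs for wild-type replicate 3, and 3 pairs for double-knockout replicates 5 and 6.

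**Figure D3:**
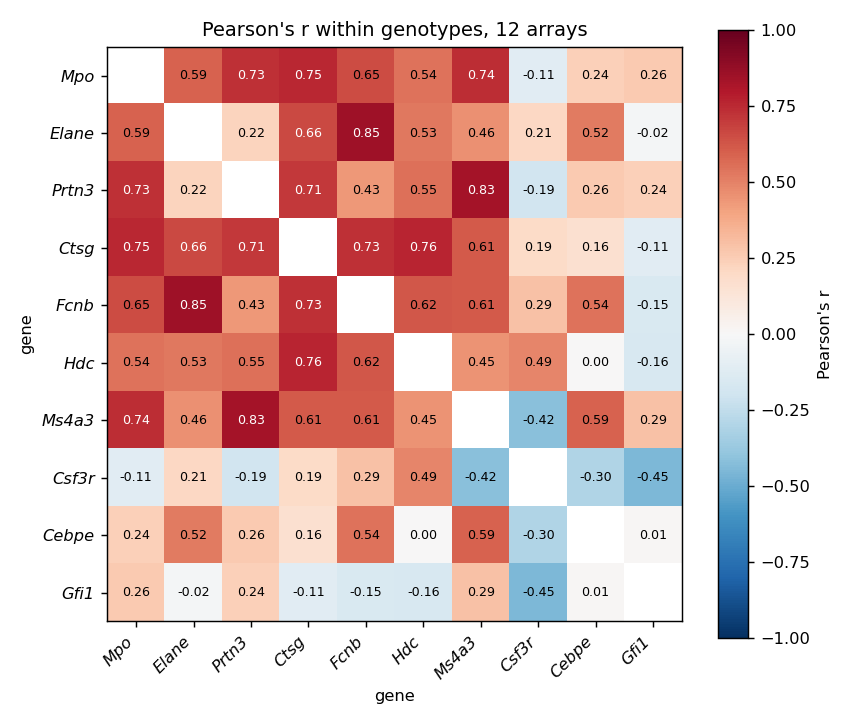
Pearson's r between each pair of the 10 genes over 12 arrays, after the mean of each genotype was removed; red is positive and blue negative. The granule proteins and Ms4a3 form a mostly red block, with Elane and Fcnb at 0.85 and a pale cell for Elane and Prtn3 at 0.22, while the rows of Csf3r and Gfi1 are pale or blue apart from Csf3r with Hdc at 0.49.

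The 8 other genes whose within-genotype pattern was most like the average of the 10 were Sf3b5, Cope, Pld4, Sergef, Dhrs7, Timm17b, Ddx47 and Dnajc4, with Pearson's r from 0.94 to 0.92 over the 12 arrays. Only Pld4 among them is known mainly from blood cells; several of the others serve general functions such as splicing, vesicle transport and mitochondrial import. Pld4, which encodes an exonuclease of myeloid and lymphoid cells, measured 8.88 ± 0.11 in wild type and 8.68 ± 0.09 in double-knockout livers (n = 6 each, ± SD; limma unadjusted p = 0.0047, adjusted p = 0.99).

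Beside the counts that follow, 41.0% of all genes had lower means, as did 54.2% of those at least as bright as Gfi1. Genes that work with the primary granule set were taken from lists, in none of which a gene passed over all genes tested. The lists were chosen with earlier results of these arrays known, so their counts are a description and not independent evidence. Besides those described here, 3 of 6 megakaryocyte and 7 of 9 endothelial markers had lower means (1 of 9 endothelial without the 4 arrays of narrower spread), as did 11 of 13 hepatocyte markers (5 of 13 without those arrays) and 3 of 12 erythroid markers (11 of 12 without them, 8 of 12 without wild-type replicate 6). All 9 exocrine pancreas markers had higher means, with a median of 1.03, and their list means ran from 7.20 to 10.75 on wild-type and from 7.32 to 10.76 on double-knockout arrays. Of 15 genes for the activation, storage, inhibition and other contents of primary granules, 9 had lower means, with a median of -0.045. Serpinb1a, which encodes an inhibitor of elastase, proteinase 3 and cathepsin G inside the cell, measured 9.55 ± 0.18 and 9.31 ± 0.19 (SD, n = 6 each), a log2 difference of -0.235 (limma unadjusted p = 0.025, adjusted p = 0.99). Without the 4 arrays of narrower spread that difference was -0.125. G6pc3, a glucose-6-phosphatase that neutrophils need, differed by -0.075 and Vps45, a vesicle fusion factor, by 0.12; neither reached an unadjusted p under 0.05.

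Of 17 transcription factors of the lineage, 15 had lower means, with a median of -0.041, and 3 were lower at an unadjusted p under 0.05 beside 1.28% of all genes. Myb, which encodes a factor of blood progenitors and early granulocyte precursors, measured 9.85 ± 0.06 and 9.72 ± 0.04 (SD, n = 6 each). It was lower on 6 of 6 double-knockout arrays than on any wild-type array, a pattern shown by 0.100% of all genes. The gap was narrow, as the lowest wild-type and the highest double-knockout value both round to 9.76. Myb had a log2 difference of -0.13 and a 95% confidence interval of -0.22 to -0.050 (limma unadjusted p = 0.0041, adjusted p = 0.99). Irf8, a factor for the monocyte rather than the neutrophil path, differed by -0.13 and Lef1, a factor shared by lymphoid and early granulocyte precursors, by -0.13 (limma unadjusted p = 0.016 and 0.017). Lef1 and Myb are also expressed in lymphoid precursors. Of 14 B and T lymphoid markers, 11 had lower means and 6 were lower at an unadjusted p under 0.05, beside 1.28% of all genes. The list means of these markers were 7.16 to 7.31 on wild-type arrays and 7.02 to 7.19 on double-knockout arrays. Their part in the values of these factors was not tested.

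Of 18 growth factors, receptors and signalling genes, 13 had lower means, with a median of -0.02; without the 4 arrays of narrower spread 8 did. Stat3, which carries the signal of Csf3r among others, differed by -0.14 (limma unadjusted p = 0.021, adjusted p = 0.99), and by -0.044 without those 4 arrays. Kitl, the ligand of Kit, differed by -0.079 and Csf2rb2, a receptor chain, by -0.12; Csf2rb2 changed sign, to 0.036, without the 4 arrays of narrower spread. Of 13 genes of granulocyte-monocyte progenitors, 10 had lower means, with a median of -0.035, and without those 4 arrays 6 did. Plac8 measured 9.14 ± 0.10 and 8.85 ± 0.16 (SD, n = 6 each), a log2 difference of -0.29 with 5 of 6 double-knockout arrays below all of wild type (limma unadjusted p = 0.0013, adjusted p = 0.91). Without those 4 arrays the difference of Plac8 was -0.20. Nkg7, a granule membrane protein, differed by -0.17, and Dmkn by 0.08.

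Secondary and tertiary granule genes, which follow the primary set, had 17 of 20 lower means with a median of -0.085. At an unadjusted p under 0.05, 7 were lower, beside 1.28% of all genes and 2.06% of those at least as bright as Gfi1. Earlier results of these arrays, in which neutrophil markers had lower means, were known when the list was chosen, so this count is not independent evidence. Chil3 differed by -0.41, Cybb, a subunit of the oxidase that supplies peroxide to myeloperoxidase, by -0.22 and Cd177, a surface protein of neutrophils, by -0.19 (limma unadjusted p = 0.00065, 0.0011 and 0.0063). Without the 4 arrays of narrower spread Chil3 differed by -0.28 and Cd177 by -0.16. Cybb lay between -0.24 and -0.20 over the alternatives other than leaving out single arrays. The difference of the secondary and tertiary genes from the primary set was not tested.

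Monocyte and macrophage markers had 10 of 16 lower means, with a median of -0.037 (6 of 16, and 0.039, without the 4 arrays of narrower spread), and list means of 9.24 to 9.39 on wild-type arrays and 9.21 to 9.41 on double-knockout arrays. Genes next to the 10 on the chromosome were also counted. Of 49 measured protein-coding genes within 3 places of any of them, 27 had lower and 22 higher means, with a median of -0.005. In the limma test 0 passed, and 1 reached an unadjusted p under 0.05. That gene, near Gfi1, was higher in the double knockout, by 0.098 (limma unadjusted p = 0.048), as were 2.64% of all genes at that threshold.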

How the data were processed

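RNA of 12 livers was measured on 1 Affymetrix array each. What the authors deposited is a table of log2 values, 1 per probe set; arrays were processed with Affymetrix Expression Console, per the submitters' processing notes. No source used here names the version, algorithm or genome build, and the log base was judged by the range of the values. No value of the table can be separated from background here.

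Of 28815 probe sets, 21780 name 1 gene, 1605 several and 5430 are unlisted. Symbols were updated by gene ID (21689 found, assembly GRCm38.p6), and the brightest probe set stood for each of 19935 genes. Genotypes were compared by limma 3.58.1 (lmFit, then eBayes; R 4.3.3; 2-sided, Benjamini-Hochberg over all genes, adjusted p under 0.05), tested on simulated data. Exact permutation used all 924 splits of the arrays; correlations used 100000 permutations (Python 3.11.15, numpy 2.4.6).

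The members and lists were chosen with earlier results of these data known. The naming rule took the 10 genes, both targeted genes, the 3 genes of smallest p in each list and the 8 genes most alike; for lists of other cell types the text gives counts only. Alternatives were quantile normalization, weights for arrays, a trended and robust prior, leaving out dim genes, blocking on the replicate number, the mean of probe sets, each array left out, and the 4 arrays of narrower spread left out. The correlations with array spread, and the alternatives for correlations and lists, were chosen after seeing the data.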

Additional observations from a re-analysis of the deposited data

Results flagged for a closer look

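Ms4a3 on double-knockout replicate 1 measured 8.48, apart from the nearest double-knockout array at 8.64, a gap of 0.76 of the range of that genotype. Nkg7 on wild-type replicate 6 measured 8.46, apart from the nearest wild-type array at 8.88, a gap of 0.84 of the range. Chance alone sets a sample apart by this measure in about 1 of 20 groups.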

How the results depend on the processing

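The 10 primary granule genes were compared under 19 alternatives each, 190 values in all, of which 184 were lower and 6 higher; none passed, and the smallest adjusted limma p was 0.43. Ms4a3 ran from -0.091 to 0.017 over the fits without 1 array. Without the 4 arrays of narrower spread Csf3r was 0.057, Csf2rb2 0.036 and Macroh2a2 0.095; Macroh2a2 ran from -0.17 to 0.006 without 1 array. Over those fits 9 to 10 members had lower means, 2 to 6 genes passed as lower and 0 to 1 as higher; 5 passed as lower after quantile normalization. The pairs that passed numbered 1 to 9 without 1 array, 2 after quantile normalization and 1 without the 4 arrays. The cause was not tested. The labels do not say that a replicate number marks a shared mother or day. Deviations of same-numbered arrays correlated at 0.205, -0.182, 0.221, 0.329, 0.166 and 0.49, positive in 5 of 6 pairs. The highest, 0.49, joined wild-type and double-knockout replicate 6, both arrays of narrower spread. Of 6 arrays each, 4 wild-type and 3 double-knockout arrays correlated best with their own number. A factor shared by same-numbered arrays was not tested. With the replicate block 2 genes passed, 0 of them members, and 3 members were lower at an unadjusted p under 0.05, beside 2.01% of all genes and 3.27% of those at least as bright as Gfi1 in that fit. Signal over background was not analysed here, so low values have no floor.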
